A study of Rattus norvegicus with 13 samples.

Results

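The comparison described here sets the SM arrays against the MS arrays, with every difference given as SM minus MS. It asks how the midbrain of rats that had just received their first methamphetamine (METH), as a binge, differed from that of rats that had been given METH for weeks and then saline. Arrays were chosen by the group in their titles, which gave 3 SM arrays (replicates 1, 3 and 4) and 4 MS arrays (replicates 1 to 4), 7 of the 13 arrays of the study. RNA of a midbrain block named SN/VTA, for substantia nigra plus ventral tegmental area, where the dopamine cell bodies lie, was measured on Illumina RatRef-12 bead arrays. Groups are named by the initials of their pretreatment and then of their challenge, each being saline or METH, and the other arrays are 3 SS and 3 MM arrays.

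All rats were male, 8-week-old Sprague-Dawley animals of 330 to 370 g. SM rats were given saline intraperitoneally over the 3 weeks of pretreatment and then 8 injections of 5 mg/kg METH at intervals of 1 h. MS rats were given METH in doses that went from 0.5 up to 2.5 mg/kg over the 3 weeks of pretreatment and then saline injections on the challenge schedule. Rats were killed 24 h after the challenge. The interval between pretreatment and challenge is stated as 72 h, while the weekly schedule puts the last pretreatment on a Monday and the challenge on the Wednesday of the same week. SM and MS differ at once in first against repeated exposure, in the size and timing of the doses and in the time since the last METH injection, and these cannot be told apart by this design. Nothing in the labels says that each array came from its own animal, although the methods imply it, so the p-values measure the spread between these arrays. The tissue label reads SN/VTA, although the amplification protocol speaks of striatal RNA.

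METH enters monoamine terminals through their transporters and releases dopamine and serotonin into the cytosol and the synapse. A binge raises body temperature and activates the stress axis, which releases glucocorticoids that switch on genes through a nuclear receptor. Interferons, which are signals of the innate immune system, switch on a further set of genes, many of which carry the interferon-stimulated response element in their promoters.

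The deposited value of a probe is a ratio to its own median across arrays, cut off below at 0.01, and 28.2% of the 292799 values lie at that limit. Signals in units were recovered from these ratios for all 22523 probes and are given below scaled to a common array median, with 0 for a value at the limit. Single arrays are listed in the order of their replicate numbers (SM replicates 1, 3 and 4, then MS replicates 1 to 4). The share of probes at the limit lay between 26.6 and 30.5% over the 13 arrays, and the highest share was on MS replicate 4. Over the 14294 probes above the limit on all arrays, log2 signals correlated between the arrays of a group at 0.977 to 0.982 in SM and 0.967 to 0.984 in MS, lowest for pairs that include MS replicate 4. Pairs of 1 SM and 1 MS array correlated at 0.971 to 0.983, a range that overlaps with those within groups. The SD within groups had a median of 3.58 units for probes averaging 1 to 10 units and of 11.7% of the mean for probes averaging 100 to 1000 units, so ratios between dim values have little precision. The depth behind a bead signal is unknown, and the number of arrays limits the precision of each difference.

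A probe was counted as changed under the criterion of the study's methods, a fold of at least 1.7 (0.77 on the log2 scale) at an unadjusted p under 0.05. By this criterion 298 of 17140 tested probes (1.74%) differed between SM and MS, of which 135 were higher in SM (0.788%) and 163 lower (0.951%). By limma at an adjusted p under 0.05 there were 0, while 814 probes (4.75%) had an unadjusted p under 0.05, and the smallest adjusted p was 0.0558. Of the changed probes, 164 carry a gene symbol. The median difference over all tested probes was -0.02, with 7951 probes higher and 9189 lower in SM. Without division by the array median, 55.3% of 291 changed probes were higher in SM, against 45.3% with it.

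Most of the changed probes were dim. Of the 298 changed probes, 137 averaged 10 units or less in the brighter of the 2 groups and 113 averaged 10 to 32 units. Among the 10799 probes over 32 units and above the limit on all 7 arrays, 47 changed (0.435%), 20 higher and 27 lower in SM, and 35 of these have a symbol. On a scale that weighs dim probes less, log2 of the signal plus 16 units, 38 probes changed (0.222%), 14 higher and 24 lower. The account below turns on these 35 genes, 14 higher and 21 lower in SM, called well measured here, and names dim genes apart. The term refers to the brighter group. In 14 of the 35 the dimmer group averaged 32 units or less (Igflr1, Pcdhgb7, Rdh10, Sds, Stom and Tmem252 among the higher, and Alox15, Atp7a, Cpxm2, Cpz, Gab1, Gucy1b2, Igfbp4 and Slfn4 among the lower genes), so these passed through the group where they were high, and in 21 both groups were over 32 units.

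**Figure D1:**
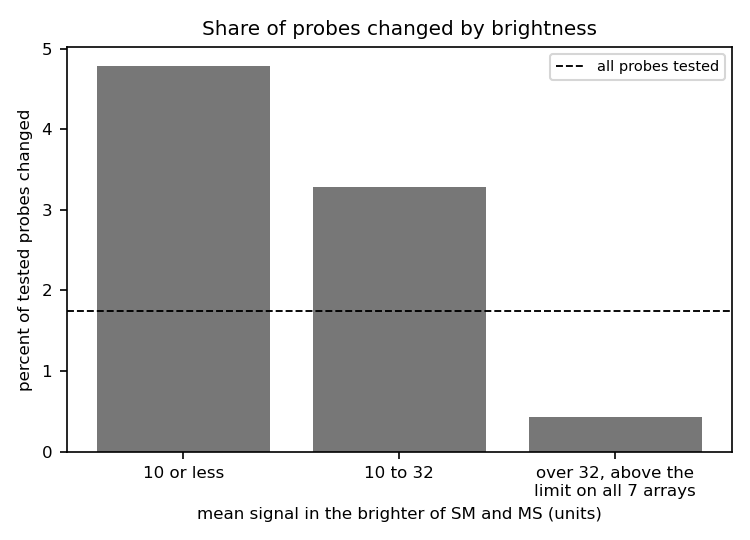
Share of tested probes that changed between SM and MS (y axis, percent of probes) by the mean signal in the brighter of the 2 groups (x axis, units), with the dashed line at the share over all 17140 tested probes. The share was 4.78% at 10 units or less, 3.28% at 10 to 32 units and 0.435% over 32 units.

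Genes that are known to respond to glucocorticoids included the brightest gene that was higher in SM. Sgk1, a kinase induced by glucocorticoids and by cell stress, gave signals of 2444, 3309 and 4728 units in SM and 1892, 1428, 1332 and 1905 units in MS. Every SM array lay above every MS array, and SM replicate 1 was the nearest to MS. The difference was 1.06 on the log2 scale (SE 0.27, limma, adjusted p = 0.705), 0.57 within replicates 1 and 2 and 1.31 within replicates 3 and 4. The SS and MM arrays averaged 2393 ± 730 and 1808 ± 467 units (SD, n = 3 each), between the means of MS and SM.

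Of the 26 genes on the list of glucocorticoid-responsive genes, 22 are on the array and 20 were tested. Of these, 17 were higher in SM, as were 7951 of all 17140 tested probes. The median difference was 0.22 against -0.02 over all tested probes, and 13 of the 15 members over 32 units were higher. Only 2 met the criterion, Sgk1 and Map3k6, both higher in SM, against 0.788% of all tested probes. Map3k6, a kinase of the stress pathways, was dim (1.40, 4.02 and 10.6 units in SM against 0.856, 1.28, 0 and 0 in MS). All SM arrays lay above all MS arrays for 3 members (15.0%; Sgk1, Map3k6 and Sult1a1), against 1.96% of all tested probes. The list means on single arrays, relative to each probe's mean over the 13 arrays, were 0.06, 0.51 and 0.12 in SM and -0.03, 0.09, -0.66 and -0.48 in MS. MS replicates 3 and 4 were low, as they were for the neuron markers described below, while MS replicates 1 and 2 were near SM replicates 1 and 4, and the part of this split in the result was not tested.

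Sult1a1, a sulfotransferase that acts on phenols and catecholamines, fell just short of the fold with 177, 189 and 250 units in SM and 113, 107, 118 and 150 in MS. Its groups did not overlap, and the difference was 0.75 (SE 0.17, unadjusted p = 0.000757 in limma). Nfkbia, which encodes the inhibitor IκBα, gave 898, 1371 and 1406 units in SM and 846, 813, 792 and 926 in MS, a difference of 0.51 (SE 0.18), and its SM replicate 1 lay inside the range of MS. Tsc22d3, a glucocorticoid-induced leucine zipper protein, differed by 0.24 (SE 0.11), the clock gene Per1 by 0.41 (SE 0.20) and Fkbp5, a chaperone of the glucocorticoid receptor, by 0.07 (SE 0.18), none of which met the criterion. Among the 3 members lower in SM was Cdkn1c, with 36.0, 33.2 and 50.5 units in SM and 61.85, 52.2, 65.3 and 48.9 in MS. Its difference was -0.53 (SE 0.19), under the fold, and its groups overlapped.

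Trh, which encodes the precursor of thyrotropin-releasing hormone, showed the largest difference among the well-measured genes that were higher in SM. Its signals were 448, 411 and 925 units in SM and 199, 254, 71.6 and 208 units in MS. All SM arrays were above all MS arrays, with SM replicate 4 highest and MS replicate 3 lowest. The difference was 1.74 (SE 0.45, adjusted p = 0.705), 0.99 within replicates 1 and 2 and 2.34 within replicates 3 and 4. The MM arrays averaged 699 ± 300 units and the SS arrays 257 ± 76.5 (SD, n = 3 each), so that both groups challenged with METH had the higher means.

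Trh was the only one of 29 tested neuropeptide genes to meet the criterion, against 0.788% of all tested probes that met it as higher. Of the 29, 20 were higher in SM with a median of 0.09. Vgf, a secreted precursor of neuropeptides, gave 228, 255 and 275 units in SM and 211, 191, 228 and 150 in MS, a difference of 0.39 (SE 0.15). Scg2, a granin of dense-core vesicles, gave 1625, 1621 and 1647 units in SM and 1449, 1502, 1394 and 1202 in MS, with no overlap and a difference of 0.24 (SE 0.12). Both differences were under the fold. Cartpt and Ucn, which encode the peptides CART and urocortin, spread widely within both groups, from 362 to 3295 and from 20.8 to 291 units in SM.

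Ggact, an enzyme that breaks down crosslinks between proteins, gave 105, 341 and 327 units in SM and 92.2, 95.1, 90.6 and 127 in MS. Its SM replicate 1 lay within the range of MS while SM replicates 3 and 4 were well above it, and the difference was 1.18 (SE 0.32, adjusted p = 0.771) and 1.74 without SM replicate 1. Tinagl1, a protein of the extracellular matrix, gave 124, 117 and 108 units in SM and 73.4, 80.5, 72.2 and 37.5 in MS, with no overlap. It differed by 0.87 (SE 0.22, adjusted p = 0.699), and by 0.62, under the fold, without MS replicate 4.

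Cyp4b1, a cytochrome P450, gave 57.4, 110 and 91.5 units in SM and 48.6, 39.5, 33.8 and 49.8 in MS, a difference of 0.97 (SE 0.30). Rdh10, which makes retinaldehyde from retinol, gave 29.7, 34.99 and 38.1 units in SM and 21.3, 17.95, 20.4 and 10.1 in MS, a difference of 1.02 (SE 0.28). Neither gene overlapped between the groups.

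Sds (serine dehydratase, 1.32, SE 0.54), Umps (the last enzyme of pyrimidine synthesis, 0.96, SE 0.40) and Gstm6 (a glutathione transferase, 0.83, SE 0.37) also met the criterion, as did Tmem252 (0.92, SE 0.34), Spaca9 (0.82, SE 0.31), Stom (stomatin, a membrane protein, 0.81, SE 0.35), Igflr1 (a receptor related to the TNF receptors, 0.79, SE 0.31) and Pcdhgb7 (a clustered protocadherin, 0.79, SE 0.19). The groups overlapped for Umps, Gstm6, Spaca9, Stom and Igflr1, and not for the other 3. Each of these 8 genes lost its call when at least 1 array was left out. The lowest values were 0.51 for Stom and Igflr1 and 0.62 for Pcdhgb7 without MS replicate 4, 0.60 for Gstm6, 0.61 for Tmem252 and 0.74 for Sds without MS replicate 3, 0.56 for Spaca9 without SM replicate 3, and 0.70 for Umps without SM replicate 1. In Umps, MS replicate 3 was at 166 units and the other MS arrays were at 56.5 to 62.7. Gstm6 and Pcdhgb7 belong to families of near-identical members, so their probes may also read relatives.

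Interferon-stimulated genes held the most changed members of the 40 gene lists, all of them lower in SM. The lists differ in size, from 2 to 59 tested genes. The list holds 50 genes, of which 44 are on the array and 41 were tested. Of these, 36 were lower in SM, 9 met the criterion and 0 were changed in the other direction, with a median of -0.50 against -0.02 over all tested probes. Over all 17140 tested probes, 9189 were lower in SM and 0.951% met the criterion as lower. On log2 of the signal plus 16 units the median was -0.27 and 6 met the criterion. Among the 22 members over 32 units, 21 were lower. All MS arrays lay above all SM arrays for 9 members (22.0%), against 2.84% of all tested probes. Some members had been seen in results of these data when the list was written, so these counts are a description and no independent support.

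Irf7, the factor that drives the interferon response of many cells, had signals of 42.8, 59.4 and 53.7 units in SM and 194, 253, 97.5 and 114 units in MS. The groups did not overlap, and MS replicates 1 and 2 were higher than MS replicates 3 and 4. It differed by -1.57 (SE 0.30, limma, adjusted p = 0.363), by -2.37 within replicates 1 and 2 and by -0.90 within replicates 3 and 4. Gbp2, a guanylate-binding protein of cell-autonomous defence, gave 44.4, 40.5 and 44.5 units in SM and 77.1, 158.5, 77.5 and 89.3 in MS, a difference of -1.15 (SE 0.22, adjusted p = 0.363). MS replicate 2 was highest for both genes and no array of MS came down to the SM level.

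Rtp4, a receptor-transporting protein induced by interferon, gave 73.8, 126 and 99.4 units in SM and 209, 274, 116 and 157 in MS. Its groups overlapped through MS replicate 3, the difference was -0.88 (SE 0.27, adjusted p = 0.849), and it was under the fold at -0.68 without either SM replicate 1 or MS replicate 2. Mx2, an antiviral GTPase, gave 85.0, 102 and 120 units in SM and 181, 254, 177 and 158 in MS, with no overlap and a difference of -0.91 (SE 0.29).

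The other 5 members that met the criterion were dim. Cxcl9, a chemokine that draws T cells, gave 0, 4.25 and 7.24 units in SM against 17.5, 21.6, 22.6 and 14.3 in MS. Igtp, a GTPase of the same defence as Gbp2, gave 2.57, 0 and 0 units in SM against 13.6, 17.5, 14.2 and 1.73 in MS, and Oas1i, an oligoadenylate synthetase, gave 5.81, 20.8 and 0 against 31.9, 35.3, 33.4 and 15.6. Usp18 and Ifi44l were at 0 on all SM arrays and at most at 7.16 and 10.9 units in MS. The probe of Oas1i may also read other members of its family.

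Of the members that did not meet the criterion, Oasl2, which is related to the oligoadenylate synthetases, gave 107, 141 and 152 units in SM and 225, 270, 186 and 181 in MS, with no overlap and a difference of -0.69 (SE 0.19). Irf9, the DNA-binding part of the interferon-activated complex, differed by -0.65 (SE 0.21), Ifi35 by -0.46 (SE 0.14), Irgm by -0.42 (SE 0.14) and Irf1 by -0.21 (SE 0.09). A second probe of Irgm was at the limit on all 7 arrays and was not tested. Of the 5 members higher in SM, Ifi27 differed by 0.16 and the dim Cxcl11 by 0.86 (SE 1.58). On log2 of the signal plus 16 units Cxcl11 differed by -0.17.

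The mean of the list on single arrays, relative to each probe's mean over the 13 arrays, was -0.24, -0.88 and -0.48 in SM and 0.47, 1.18, 0.23 and -0.03 in MS. MS replicate 2 was highest, and every SM array was below every MS array. Without MS replicate 2 the count of members that met the criterion was 6 and the median was -0.40, without MS replicate 4 the count was 12, and without SM replicate 3 the median was -0.29. The SS arrays lay between 0.05 and 0.59 and the MM arrays between -0.45 and -0.21. Of 14 tested genes of microglia and macrophages 8 were higher in SM with 0 changed and a median of 0.07, and their part in the interferon result was not tested.

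**Figure D2:**
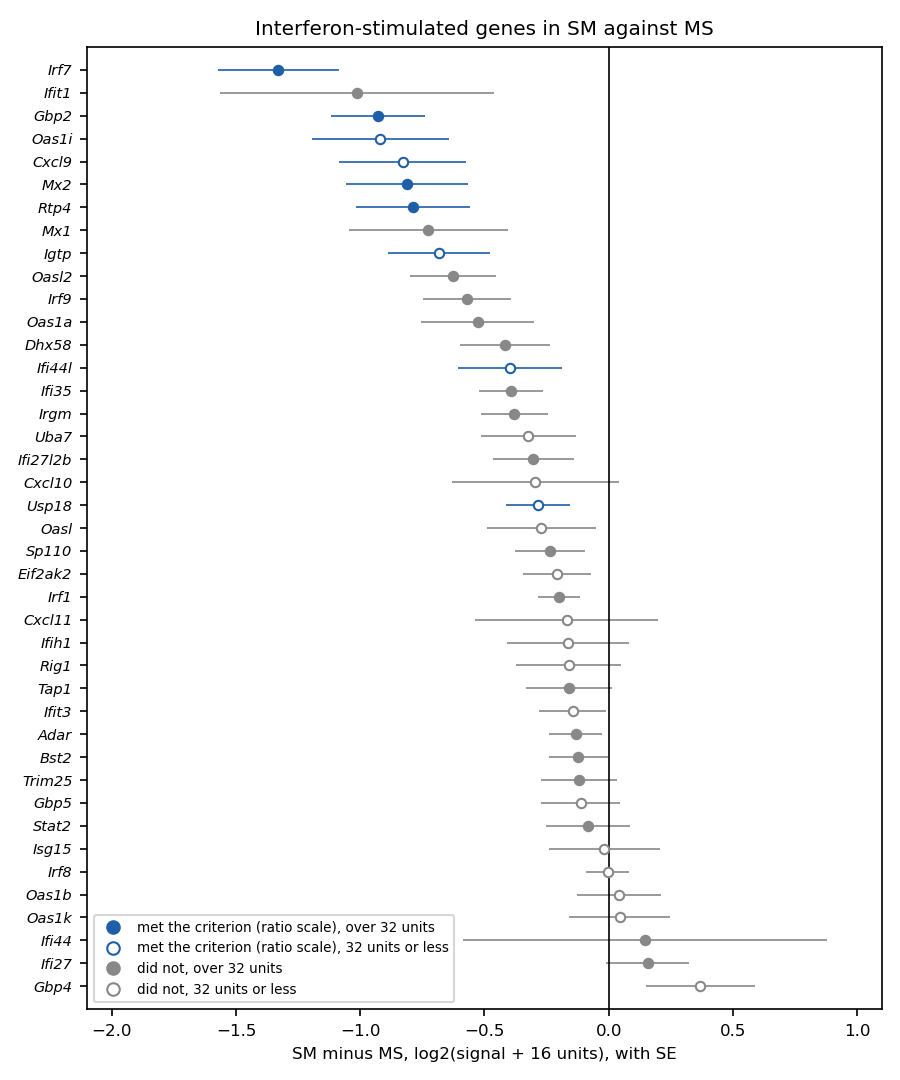
Difference between SM and MS for the 41 tested interferon-stimulated genes (x axis, SM minus MS in log2 of the signal plus 16 units, bars are the SE from limma; y axis, genes in order of the difference). Filled points are genes over 32 units and blue points those that met the criterion on the scale of the ratios, and most points lie left of 0, with Irf7 farthest at -1.33.

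Many promoters of these genes hold the core of the interferon-stimulated response element. The list was made of genes known to respond to interferon, so this share describes the list and not SM against MS. In RefSeq promoters of the rat assembly GRCr8 (250 bases before to 50 bases after the annotated start of each gene), the core of the interferon-stimulated response element, which was searched as GAAA, any 2 bases and GAAA again on either strand with overlapping matches allowed, was found in 20 of the 31 list members with a promoter in the table (64.5%) and in 1034 of all 27457 promoters (3.77%). Of the 9 members that met the criterion, 6 have a promoter in the table and 5 of these hold the core. The 120 bases before the start of these 5 genes are shown because they carry the element, on the strand of the gene, with the matches in capitals (as TTTC, 2 bases and TTTC where the core lies on the other strand). Gbp2 lies at chr2:234005607-234005726, Ifi44l at chr2:243328603-243328722, Igtp at chr10:42874927-42875046 and Oas1i at chr12:41285106-41285225, all on the plus strand, and Irf7 at chr1:205800024-205800143 on the minus strand.
Gbp2: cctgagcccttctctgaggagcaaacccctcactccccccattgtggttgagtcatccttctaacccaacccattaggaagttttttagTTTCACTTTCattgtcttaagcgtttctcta
Ifi44l: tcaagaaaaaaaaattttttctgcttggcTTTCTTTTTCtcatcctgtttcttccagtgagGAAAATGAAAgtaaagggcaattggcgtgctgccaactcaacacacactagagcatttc
Igtp: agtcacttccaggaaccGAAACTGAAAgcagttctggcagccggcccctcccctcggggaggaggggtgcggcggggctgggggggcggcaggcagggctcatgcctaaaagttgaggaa
Irf7: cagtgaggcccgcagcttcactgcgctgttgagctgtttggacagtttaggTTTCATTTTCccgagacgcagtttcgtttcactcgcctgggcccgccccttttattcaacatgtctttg
Oas1i: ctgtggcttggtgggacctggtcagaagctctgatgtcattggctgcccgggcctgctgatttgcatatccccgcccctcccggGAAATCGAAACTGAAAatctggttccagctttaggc

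Ifi44l and Oas1i each hold 2 matches, which overlap in Oas1i. Across the well-measured changed genes, the core was found in 3 of the 13 lower genes with a promoter (Gbp2, Irf7 and Lgals5) and in 0 of the 8 higher ones. The core of the glucocorticoid response element, ACANNNTGT, was found in 2 of 17 promoters of the glucocorticoid list (11.8%) against 6.60% of all promoters, and in 1 of the 8 well-measured higher genes, Tmem252. A match is a description of letters in this window and not of binding.

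After Aplnr, described below, Mmp14 had the smallest p of the 35 well-measured genes. Mmp14, a membrane-bound protease that cleaves collagen and activates other proteases, gave 182, 71.0 and 121 units in SM and 430, 476, 452 and 398 units in MS. All SM arrays lay far below the lowest MS array, and the difference was -1.91 (SE 0.27, limma, adjusted p = 0.108). Leaving out single arrays gave -2.24 to -1.56. The SS arrays averaged 388 ± 30.9 units and the MM arrays 179 ± 17.7 (SD, n = 3 each), so that both groups challenged with METH had the lower means.

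Of 21 tested genes of the metalloproteinase and matrix list, 9 were higher and 12 lower in SM with a median of -0.04. In each direction 1 met the criterion, against 0.788% (higher) and 0.951% (lower) of all tested probes. Mmp3, a secreted protease, was the only other member that met the criterion, in the opposite direction and at a dim level of 10.5, 12.9 and 14.0 units in SM and 0 on all MS arrays. On log2 of the signal plus 16 units Mmp3 differed by 0.83 (SE 0.15). Adamts1 and Adamts4, proteases that cut proteoglycans, differed by -0.39 (SE 0.18) and -0.31 (SE 0.12).

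Of 15 genes of meninges and choroid plexus, 13 were lower in SM, as were all 11 over 32 units, with a median of -0.26. As lower, 1 met the criterion, against 0.951% of all tested probes. For 5 of the 15 (33.3%) all MS arrays lay above all SM arrays, against 2.84% of all tested probes. The list means on single arrays overlapped, with 0.10, -0.29 and 0.17 in SM and 0.57, 0.24, -0.04 and 0.31 in MS. Igf2, a growth factor made by meninges and vessels, gave 2272, 2216 and 2874 units in SM and 3864, 3968, 3320 and 3957 in MS, with no overlap and a difference of -0.63 (SE 0.13), under the fold. Col1a2, a chain of fibrillar collagen, gave 580, 583 and 630 units in SM and 732, 852, 997 and 1147 in MS, a difference of -0.62 (SE 0.17). Col3a1, another such chain, met the criterion at a dim level of 11.8, 15.1 and 2.22 units in SM and 17.7, 31.7, 28.1 and 21.6 in MS. In whole tissue, fewer cells of a type and less RNA per cell cannot be told apart.

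Aplnr had the smallest p of all tested probes. This receptor of the peptide apelin, found on endothelium, gave 101, 98.5 and 98.4 units in SM and 160, 187, 161 and 179 in MS. The SM arrays differed among themselves by less than 3 units and all lay below the lowest MS array. The difference was -0.79 (SE 0.10, limma, adjusted p = 0.0558), close to the fold of the criterion, and it was -0.75 without MS replicate 2 and -0.71 on the ratios as deposited. The SS arrays averaged 122 ± 12.0 units and the MM arrays 126 ± 2.46 (SD, n = 3 each), between SM and MS.

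Rbm3, whose product binds RNA and is induced by cold, gave 313, 272 and 224 units in SM and 501, 594, 398 and 538 in MS, with no overlap and a difference of -0.91 (SE 0.16, adjusted p = 0.32). Cirbp, the other cold-inducible RNA-binding protein on the list, gave 545, 545 and 525 units in SM and 797, 725, 540 and 795 in MS, a difference of -0.39 (SE 0.13) that did not meet the criterion, with MS replicate 3 at the level of SM. The MM arrays averaged 297 ± 41.4 units for Rbm3 and the SS arrays 430 ± 18.2 (SD, n = 3 each).

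Igfbp4, which binds insulin-like growth factors, gave 16.0, 16.0 and 19.4 units in SM and 38.0, 27.3, 28.4 and 35.2 in MS, a difference of -0.90 (SE 0.16, adjusted p = 0.32). Its groups did not overlap, but a second probe of Igfbp4 was at the limit on all 7 arrays. Gucy1b2, a subunit of guanylate cyclase, gave 27.5, 21.1 and 25 units in SM and 42.3, 62.3, 40.7 and 56.5 in MS, with no overlap and a difference of -1.02 (SE 0.20, adjusted p = 0.391).

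Trak2, an adaptor that links mitochondria to motor proteins, gave 85.9, 77.1 and 88.8 units in SM and 194, 240, 148 and 175 in MS, a difference of -1.15 (SE 0.32) with no overlap. Slc25a15, the ornithine carrier of mitochondria, gave 172, 57.0 and 53.7 units in SM and 324, 219, 301 and 296 in MS, a difference of -1.81 (SE 0.39, adjusted p = 0.467). Its groups did not overlap although SM replicate 1 was well above the other SM arrays.

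Rpl30, a ribosomal protein gene, had the largest difference of the well-measured genes, and it rested on SM replicates 3 and 4. It gave 3787, 162 and 248 units in SM and 3166, 3479, 3520 and 6692 in MS. SM replicate 1 lay within the range of MS, and the difference of -2.91 (SE 0.83, adjusted p = 0.81) was 0.19 within replicates 1 and 2 and -4.60 within replicates 3 and 4. Rpl30 has near-identical copies in the genome that its probe may read. Of 59 tested genes of cytosolic ribosomal proteins, 40 were higher in SM with a median of 0.04, and Rpl30 was the only one that met the criterion. Over all tested probes 0.951% met it as lower.

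The remaining well-measured genes lower in SM included Lgals5 (a galectin, -1.95, SE 0.63), Cpz (a carboxypeptidase, -0.83, SE 0.25) and Hba-a3, an alpha-globin gene. Hba-a3 gave 247, 205 and 287 units in SM and 615, 634, 375 and 456 in MS, with no overlap and a difference of -1.06 (SE 0.34). Lgals5 gave -1.19 at an unadjusted p of 0.0506 without SM replicate 3, and Cpz was under the fold without SM replicate 3 or MS replicate 4 at -0.69 and -0.67. Slfn4, in mouse a gene of myeloid cells (-1.20, SE 0.43), Atp7a, a copper transporter (-2.30, SE 0.93), Alox15, a lipoxygenase (-0.79, SE 0.33), Gab1, a docking protein of growth factor receptors (-0.88, SE 0.32), Cpxm2 (-0.81, SE 0.33) and Cacng7, a subunit of calcium channels (-0.79, SE 0.33) complete the 21 and are named here after their values were seen.

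Blood cell genes showed a similar sign. Of 9 tested, 6 were lower in SM with 0 that met the criterion, 2 (against 2.84% of all tested probes) with all MS arrays above all SM arrays, and a median of -0.31. Their summed signal, which is mostly globin, lay between 24946 and 27910 units in SM and between 29962 and 40637 in MS. The list means on single arrays overlapped, with 0.03, -0.24 and -0.50 in SM and 0.31, 0.29, -0.38 and -0.04 in MS. Hbb, the beta-globin gene, gave 10565, 12421 and 12767 units in SM and 19106, 17406, 14195 and 17995 in MS, a difference of -0.52 (SE 0.19). Hba-a1, an alpha-globin gene, differed by -0.42 (SE 0.16), and Hba-a3 belongs to the same family, so their probes may read each other's RNA. The part of blood in the differences of Slfn4, the interferon genes and Hba-a3 was not tested.

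**Figure D3:**
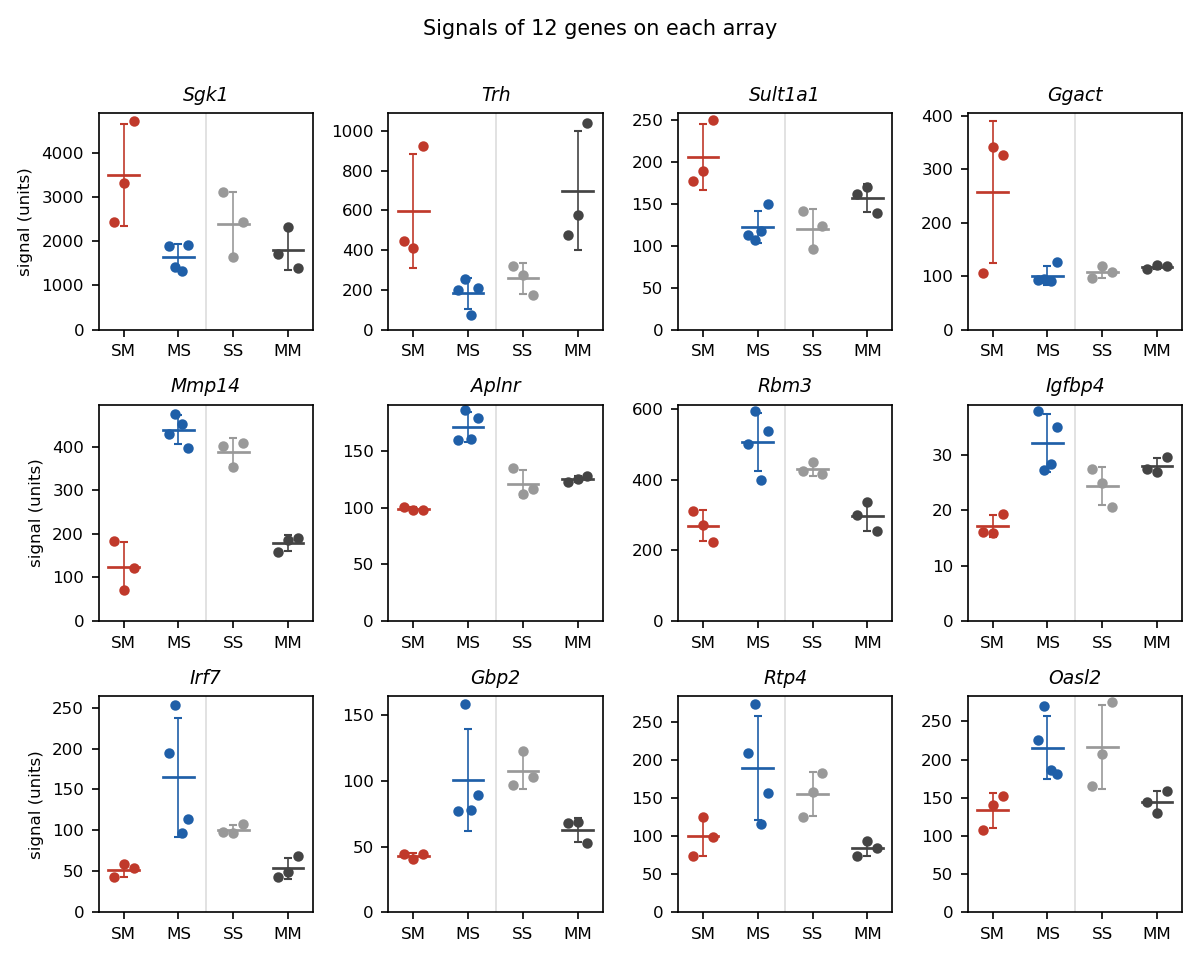
Signal (y axis, units from 0) on each array for 12 genes, in SM and MS and, right of the grey line, SS and MM; points are arrays, bars the mean and the SD. Mmp14 lay at 71.0 to 182 units in SM and 398 to 476 in MS, and Rbm3, Irf7 and Mmp14 had low means in both SM and MM.

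The SS and MM arrays share no array with SM or MS, so the difference MM minus SS, fitted in the same model, gives these genes in other arrays. It sets METH pretreatment and challenge together against saline, so it is no repeat of SM against MS. By the same criterion 276 of 17140 probes (1.61%) changed between MM and SS, 138 in each direction (0.805% each). Of the 21 well-measured genes lower in SM than in MS, 15 were also lower in MM than in SS with a median of -0.37, and 6 met the criterion there in the same direction (Mmp14, Irf7, Gbp2, Rtp4, Slfn4 and Alox15). Of the 14 higher genes, 11 were higher in MM with a median of 0.10, and 2 met the criterion (Trh and Igflr1). None of the 35 met it in the opposite direction, and the median over all tested probes was 0.01.

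By gene, MM minus SS was 1.41 for Trh (SE 0.48), -1.12 for Mmp14 (SE 0.29), -0.94 for Irf7 (SE 0.32), -0.78 for Gbp2 (SE 0.24) and -0.87 for Rtp4 (SE 0.29). Rbm3 gave -0.54 (SE 0.17) and Tinagl1 0.50 (SE 0.23), both under the fold. Sgk1 gave -0.39 (SE 0.29), opposite in sign to SM minus MS, while Aplnr gave 0.05 (SE 0.10), Igfbp4 0.21 and Atp7a 2.03 (SE 0.99). Across the lists, 32 of 41 interferon genes were lower in MM with 6 changed and a median of -0.25, 12 of 15 genes of meninges and choroid plexus were lower with a median of -0.16, and only 8 of 20 glucocorticoid-responsive genes were higher with a median of -0.10. Of the 9 blood cell genes 7 were lower in MM, 3 of them changed, with a median of -0.82.

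**Figure D4:**
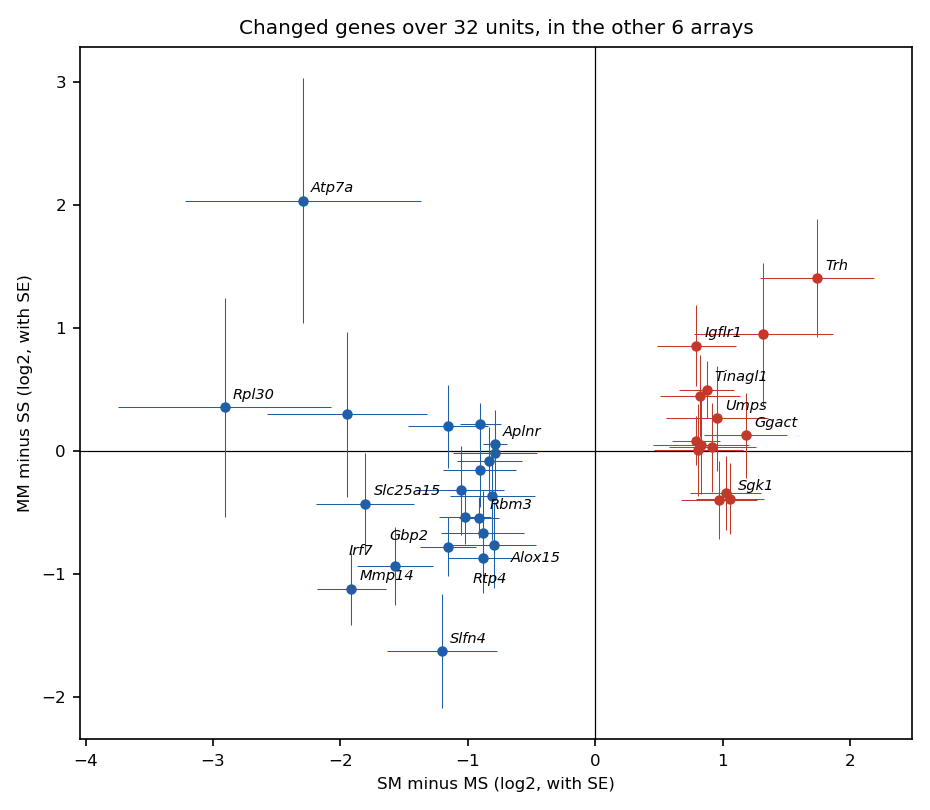
SM minus MS (x axis, log2 with SE) against MM minus SS (y axis, log2 with SE) for the 35 changed genes over 32 units, red where higher in SM and blue where lower. The 2 axes share no array, and Trh at 1.74 and 1.41 and Mmp14 at -1.91 and -1.12 lie far from 0 on both, whereas Sgk1 and Atp7a have opposite signs.

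Markers of dopamine neurons, which bear on the tissue label, and of serotonin neurons differed widely between arrays of a group. The serotonin markers are no check of an SN/VTA label, and whether the blocks held serotonin cell bodies was not tested. Of 22 dopamine neuron genes 19 are on the array and 15 were tested, 10 of them higher in SM with 0 that met the criterion and a median of 0.46 (0.10 on log2 of the signal plus 16 units). Th, tyrosine hydroxylase, the rate-limiting enzyme of dopamine synthesis, gave 758, 2244 and 861 units in SM and 937, 2675, 482 and 301 in MS, a difference of 0.55 (SE 0.78). Slc6a3, the dopamine transporter, gave 829, 2106 and 389 units in SM and 716, 2080, 0 and 276 in MS, and Slc18a2, the vesicular transporter of monoamines, gave 463, 473 and 391 against 352, 566, 178 and 198. The groups overlapped for all 3 genes, and Ddc, the decarboxylase that completes dopamine synthesis, was at the limit on all 13 arrays.

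All 9 tested serotonin neuron genes were higher in SM, with a median of 0.88. Tph2, the neuronal tryptophan hydroxylase, gave 2307, 1992 and 2749 units in SM and 1644, 2038, 754 and 786 in MS, a difference of 0.97 (SE 0.46, unadjusted p = 0.0545 in limma). Slc6a4, the serotonin transporter, gave 1217, 1163 and 1836 units in SM and 1131, 1631, 391 and 430 in MS, and Fev, a factor that specifies serotonin neurons, gave 352, 372 and 488 against 309, 475, 74.7 and 84.7. MS replicate 1 lay below every SM array for all 3 genes and MS replicate 2 within the range of SM, while MS replicates 3 and 4 were far lower. Htr1b, a serotonin receptor, alone met the criterion, at 4.41, 7.27 and 0.584 units in SM against 0.476, 0, 0 and 0 in MS. Over all tested probes 0.788% met it as higher. The median of the list was 0.57 without MS replicate 3 and 0.62 without MS replicate 4, and 0.30 on log2 of the signal plus 16 units. Without MS replicate 2, 4 of the 9 met the criterion, and without SM replicate 3, 0 did. With replicates 1 and 2 against replicates 3 and 4 as a block 4 met it and the median was 1.01, and with the replicate number as a block 2 did.

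MS replicates 3 and 4 had list means of -0.94 and -0.95 for dopamine neuron genes and of -1.10 and -1.02 for serotonin neuron genes, against -0.13 and 0.49 and 0.02 and 0.09 in MS replicates 1 and 2. In SM the means were 0.40, 0.73 and -0.30 for dopamine and 0.48, 0.58 and 0.36 for serotonin neuron genes. The part of these neuron markers in the other differences was not tested. The 4 tested cholinergic neuron genes were all lower in SM with 0 changed and a median of -0.36.

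**Figure D5:**
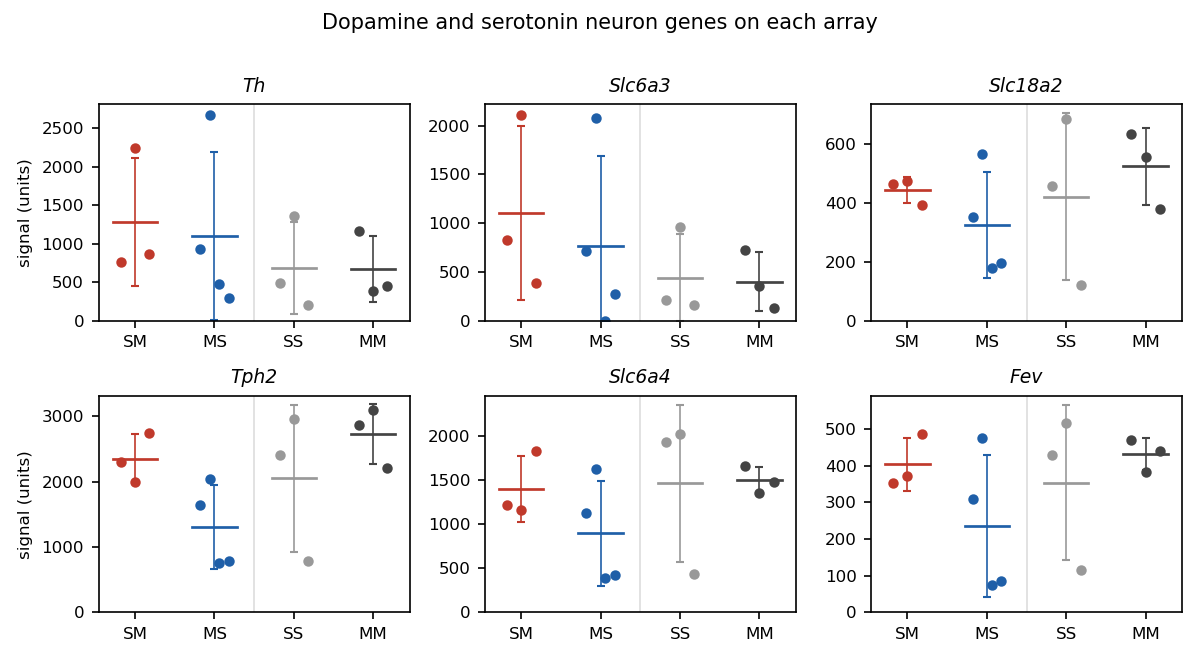
Signal (y axis, units from 0) of 3 dopamine neuron genes (upper panels) and 3 serotonin neuron genes (lower panels) on each array; points are arrays, bars the mean and the SD, in SM, MS and, right of the grey line, SS and MM. In MS the serotonin genes form a high pair (replicates 1 and 2) and a low pair (replicates 3 and 4), with Tph2 at 1644 and 2038 against 754 and 786 units.

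Neurotrophic factor genes and antioxidant genes, classes that the study discusses, held 0 members changed at the criterion, against 1.74% of all tested probes. The study measured genes of both classes by quantitative PCR, which is a different assay. There BDNF in SM differed from MS, and the GDNF changes after the challenge were significant only against MS. The array counts are no check of those PCR values. Cntf, a survival factor made by astrocytes, gave 474, 506 and 425 units in SM and 611, 617, 810 and 708 in MS, with no overlap and a difference of -0.55 (SE 0.13), under the fold. Bdnf, a survival factor made by neurons, gave 131, 148 and 155 units in SM and 127, 119, 128 and 119 in MS, also without overlap but with a difference of only 0.23 (SE 0.10). Of the 18 tested neurotrophic factor genes 11 were higher in SM and the median was 0.05, while Gdnf was at the limit on all 13 arrays.

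Of 33 antioxidant genes 19 were higher in SM with a median of 0.03. Sod1, the cytosolic superoxide dismutase, gave 13357, 12144 and 12262 units in SM and 10502, 10369, 10471 and 10899 in MS, with no overlap and a difference of 0.25 (SE 0.10). Sod2, its mitochondrial counterpart, differed by 0.19 (SE 0.09), Hmox1, heme oxygenase 1, by 0.25 (SE 0.14) and Gpx1, a glutathione peroxidase, by -0.01 (SE 0.13). All of these were far under the fold.

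Of 13 circadian clock genes, Clock alone met the criterion, at 4.04, 10.5 and 7.59 units in SM and 17.0, 23.2, 15.6 and 11.6 in MS (-1.25, SE 0.38). Its partner Bmal1 differed by -0.16 and Npas2 by -0.32, neither past the criterion, and the median of the list was -0.01. Of 34 potassium channel genes Kcna2 alone met the criterion, at 8.97, 3.91 and 0 units in SM and 15.1, 14.6, 20.5 and 10.3 in MS. Clock and Kcna2 were lower in SM, a direction in which 0.951% of all tested probes met the criterion. Of 14 oligodendrocyte and myelin genes, 11 were lower in SM with 0 changed and a median of -0.12, and Opalin, a myelin membrane protein, differed by -0.71 (SE 0.31).

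Some lists not described above had medians away from that of all probes, each with 0 changed members. These were pericyte and smooth muscle genes (0.23, 6 of 7 higher in SM), reactive glia genes (-0.21, 6 of 9 lower) and oligodendrocyte precursor genes (0.19, 3 of 4 higher). The lists that follow lay close to the median of all probes. Of 18 immediate early genes 8 were higher in SM with 0 changed and a median of -0.04, and Fos, which marks recent activity of cells, differed by 0.32 (SE 0.25), Jun by -0.05 and Junb by -0.03. The medians were 0.02 for 23 heat shock and chaperone genes, 0.02 for 24 genes of endoplasmic reticulum stress, 0.06 for 45 genes of oxidative phosphorylation, 0.00 for 32 proteasome genes and 0.05 for 9 astrocyte genes, each with 0 changed members. The reference genes Actb and Gapdh differed by -0.08 (SE 0.10) and 0.02 (SE 0.08).

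Dim changes at the limit in a whole group give values but no fold. Among changed genes with a symbol at the limit on all arrays of 1 group, 16 were higher and 17 lower in SM. Klrg1, an inhibitory receptor of lymphocytes, gave 1.03, 1.68 and 7.36 units in SM and 0 on all MS arrays, and Tpsab1, a mast cell tryptase, gave 8.09, 3.69 and 5.61 units in SM and 0 on all MS arrays. Krt81, a hair keratin, gave 0.809, 5.70 and 7.71 units in SM and 0 in MS. Cga, the shared subunit of pituitary hormones, stayed under 2.4 units.

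In the other direction, Klkb1, a plasma protease, was at 0 in SM and at 4.0, 10.7, 3.56 and 5.59 units in MS, and Heca was at 0 in SM and at 8.66, 3.34, 6.36 and 5.39 in MS. On log2 of the signal plus 16 units these differences were 0.26 for Klrg1, 0.44 for Tpsab1, 0.36 for Krt81 and -0.45 for Klkb1 and Heca, all under the fold. The SD within groups at such levels had a median of 3.58 units. Hspb2, Pip5k1c, Ptprm, Olr1143 and Rpl36a, which the study singles out, were at 3.04 units or less on all 7 arrays and did not meet the criterion. None of the study's array calls for these genes was of SM against MS. It lists Hspb2, Pip5k1c and Ptprm for MM against MS and reports increases of them after the challenge by quantitative PCR. These values are no check of those results.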

How the data were processed

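The authors extracted bead signals in BeadStudio and normalized them globally in GeneSpring, and the deposited values are a ratio of each probe's signal to its median over the 13 arrays (at least 10 units), with a lower limit of 0.01. The genome build of the probes is not given in the sources used here. Signals were recovered from the steps of the ratios, a whole number of 0.1 units for 100% of 29831 dim values checked (tolerance 0.1 of a step). Symbols came from the platform annotation, and 13752 of 13793 matched GRCr8, while 8730 probes are unnamed. The brightest probe stands for a gene.

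Ratios were divided by the array median (0.77 to 0.952), values at the limit were set to the floor of 0.012 (the 25th percentile of all scaled ratios, with no pseudocount), and log2 values were taken. The 17140 probes that exceeded the floor on 3 or more arrays entered a limma fit (version 3.58.1 in R 4.3.3) of a mean for each of the 4 groups, with eBayes run with trend (prior of 2.8 degrees) and Benjamini-Hochberg adjustment. Differences are therefore on this floored scale, on which the fold of a gene at the limit is not a bound. Of these steps only the fit was run on simulated data, without values at the limit. Signal recovery, the division by the array median, the floor, the filter and the fit of dim probes at the limit were not tested in this way. Same-numbered SM and MS arrays deviated together at r of 0.03, -0.06 and 0.11, so the numbers were not taken as pairs. Over all pairs of arrays from different groups, r was highest at 0.265 (SS and MS replicates 4) and lowest at -0.237 (SS replicate 2 with MS replicate 4). The first pair lies within replicates 3 and 4, and the second crosses to replicates 1 and 2. Some pairs went against this split (SS replicate 4 with SM replicate 3, -0.07). With the split as a block 353 probes changed.

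The genes named are the 15 well-measured probes with a symbol and the smallest p in each direction (14 and 15 found), 5 dim examples in each direction, members of lists and genes the study names, and those outside this rule are said to be so or stand in a list described. The comparison, its genes and the gene lists were chosen with earlier results of these data known. Alternatives were other scalings, floors, offsets and filters, SM and MS arrays alone, blocks, an untrended prior and leaving out each array.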

Additional observations from a re-analysis of the deposited data

Results flagged for a closer look

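Of 101 genes above the limit on all 4 MS arrays, 9 had an array far from the other 3, where chance gives about 1 in 20. MS replicate 4 was apart for Rpl30 (6692 units, the others 3166 to 3520), Klf9 (3536, the others 2723 to 2840), Per2 (1011, the others 614 to 633), Ggact (127.0, the others 90.6 to 95.1), Mbp (5991, the others 7836 to 7939) and Alox15 (28.6, the others 51.1 to 53.5). MS replicate 3 was apart for Umps (166 units, the others 56.5 to 62.7) and Igf2 (3320, the others 3864 to 3968). MS replicate 2 was apart for Gbp2 (158.5 units, the others 77.1 to 89.3). For 5 dim genes a single MS array was above 0, so that it stands apart by construction and has no such chance rate, with 3.04 units for Hspb2 (replicate 2), 2.70 for Olr1143 (replicate 3), 1.52 for Ptprm (replicate 1), 1.18 for Pip5k1c (replicate 2) and 0.476 for Htr1b (replicate 1). SM has 3 arrays and was not examined in this way.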

How the results depend on the processing

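On log2 of the signal plus 16 units 38 probes changed (14 higher and 24 lower in SM, 30 of them over 32 units), and with only probes above the limit on all 7 arrays 129 changed (44 higher, 85 lower). By construction the first weighs dim probes less and the second tests fewer of them. Leaving out single arrays gave 289 to 397 changed probes, 113 to 188 higher and 159 to 258 lower (258 without SM replicate 1), and 52 to 75 over 32 units (75 without SM replicate 1, 68 without SM replicate 4, 69 without MS replicate 2). The cause was not tested. Between 252 and 353 probes changed under all other settings. Among these was a scaling on the probes over 100 units, chosen after seeing the data (298). Medians of the interferon, glucocorticoid, serotonin, meninges and blood cell lists kept their sign under all settings, with -0.57 to -0.29, 0.21 to 0.30, 0.57 to 1.23, -0.38 to -0.21 and -0.39 to -0.20 when single arrays were left out.

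With the replicate number as a block 332 probes changed (159 higher, 173 lower, 237 of them shared with the 298) and 0 reached an adjusted p under 0.05. Within replicates 1 and 2, where no call was made, Rpl30 was reversed at 0.19 and 10 of 29 well-measured genes moved. A gene moved where its difference shifted by at least the larger SD of SM and MS. Ggact was 0.17 and Slc25a15 -0.64 there, both moved, against 1.64 and -2.43 within replicates 3 and 4. Within replicates 3 and 4, 3 genes moved. Of the 29 well-measured genes named by the rule, 13 lost their call on log2 of the signal plus 16 units, 7 on log2 of the ratio plus 0.1 and 0 to 7 under the other settings. Sgk1, Trh, Ggact, Mmp14, Irf7, Gbp2, Rbm3 and Slc25a15 kept theirs in all of these. Aplnr was under the fold at -0.70 to -0.75 under 6 settings. An adjusted p under 0.05 was reached by Mmp14 (0.00475) and Aplnr (0.0451) on log2 of the signal plus 16 units, and by 8 probes without SM replicate 1, among them Ggact (1.74, 0.00144), Rpl30 (-4.32, 0.00278), Mmp14 (-2.24, 0.00731), Slc25a15 (-2.35, 0.0238) and Aplnr (-0.80, 0.0397). In the other settings 0 to 4 probes did.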
